A study of Mus musculus with 6 samples.

Results

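Txnip, 4 other alpha-arrestin genes (Arrdc1, Arrdc2, Arrdc3 and Arrdc4) and 3 genes of the glucose-sensing Mondo factors (Mlxip, Mlxipl and Mlx) were followed in CAD cells, 8 genes of the 55536 counted. They were chosen by family membership, with the counts of this comparison already known. Their levels are therefore given as a description, and no p-value is drawn for them. CAD is a male mouse central nervous system line of C57BL/6 x DBA/2 origin, transformed with simian virus 40, and all libraries came from this 1 line. In the dexamethasone group (3 libraries) cells were kept in 100 µM dexamethasone with 1% serum for 5 days. The undifferentiated group (3 libraries) proliferated in 8% serum without the steroid. The labels list a medium change, 48 h, for the dexamethasone group and none for the undifferentiated group. Steroid, serum, growth state and the listed medium change differed together, so their parts cannot be told apart. Gene expression was measured by mRNA sequencing, and the counts summed to between 6411105 and 8757992 reads per library.

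Alpha-arrestins are adaptor proteins of the inner face of the plasma membrane and endosomes. Most of them recruit ubiquitin ligases of the NEDD4 family to membrane proteins that are then taken up. TXNIP, the best studied of them, also binds thioredoxin and lowers glucose uptake by favouring the internalization of glucose transporters. MondoA, the product of Mlxip, and ChREBP, the product of Mlxipl, are transcription factors that pair with MLX and respond to glucose phosphates. The pairs bind carbohydrate response elements, and Txnip and Arrdc4 are among their known targets. Txnip is also known as a gene induced by glucocorticoids.

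The promoters of Txnip and Arrdc4 are shown because both genes are known targets of the same factors, and Txnip had the most reads of the family in dexamethasone-treated cells while Arrdc4 had none in any library. The counts do not show whether the Arrdc4 locus is intact in this line, so its 0 is not read as a property of the promoter. Sequences are from RefSeq in GRCm38.p6, from 250 bases before to 50 bases after the gene's start, read 5′ to 3′ on the gene's strand. Capitals mark matches, on either strand, to 4 motifs: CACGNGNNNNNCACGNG, a carbohydrate response element of a pair of boxes 5 bases apart; the E-box CACGTG; the CCAAT box; and GNACANNNTGTNC, a palindromic glucocorticoid response element. An E-box can be part of a carbohydrate response element; no such overlap occurred here.
Txnip, chr3:96557707-96558006, plus strand: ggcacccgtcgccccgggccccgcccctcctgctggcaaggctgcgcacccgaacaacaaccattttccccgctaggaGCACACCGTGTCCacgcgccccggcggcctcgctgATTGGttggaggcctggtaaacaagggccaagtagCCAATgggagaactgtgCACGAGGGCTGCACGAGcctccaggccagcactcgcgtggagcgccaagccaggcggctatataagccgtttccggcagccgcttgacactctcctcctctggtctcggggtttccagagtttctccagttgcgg
Arrdc4, chr7:68749189-68749488, minus strand: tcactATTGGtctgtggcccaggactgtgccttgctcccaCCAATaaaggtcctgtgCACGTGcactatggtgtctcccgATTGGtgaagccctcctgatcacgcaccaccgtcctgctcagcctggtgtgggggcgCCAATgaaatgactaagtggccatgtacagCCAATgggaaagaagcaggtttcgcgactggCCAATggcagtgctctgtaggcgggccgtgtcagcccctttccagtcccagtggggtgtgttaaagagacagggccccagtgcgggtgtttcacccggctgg
The Txnip window held 1 carbohydrate response element from position -85 and 1 glucocorticoid response element from position -172, counted from the gene's start. Among all 32851 promoter windows of the table, 0.0487% held the first motif and 0.475% the second. The Arrdc4 window held 1 E-box, from position -193, and 6 CCAAT boxes. All 8 genes were matched to the table, with 11 windows in all. Txnip was the only gene of the 8 with either response element in these windows. Arrdc4, Mlxipl and Mlx each held an E-box, a motif of 7.15% of all windows. A CCAAT box was found for 7 of the 8 genes, all but Arrdc1, and in 37.4% of all windows. A match is a run of letters and does not show binding.

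Txnip (ENSMUSG00000038393; chromosome 3, 96557957 to 96561883 in GRCm38, plus strand, 6 merged exons of 3123 bases) had the largest change of the family. It had 905, 923 and 605 reads in dexamethasone replicates 1, 2 and 3, against 24, 25 and 28 reads in undifferentiated replicates 1, 2 and 3. Scaled to CPM, which are reads relative to the library's total after TMM scaling, these were 100.2, 100.6 and 90.1 CPM in dexamethasone-treated cells and 3.39, 3.19 and 4.55 CPM in undifferentiated cells. Every dexamethasone library lay above every undifferentiated library, as for 41.0% of all 12664 tested genes. The means were 97.0 ± 5.96 CPM in dexamethasone-treated cells and 3.71 ± 0.733 CPM in undifferentiated cells (SD, n = 3 each), a log2 fold change of 4.73 ± 0.115 (SE), or 26.5-fold. Ordered by fold change, Txnip was number 114 from the top among 12664 tested genes. By level per length it ranked between 1582 and 1814 of all genes in the dexamethasone libraries and between 10785 and 11529 in the undifferentiated libraries. The spread of Txnip among the undifferentiated libraries, a coefficient of variation of 19.8%, was close to the 19.7% that counting so few reads gives. In dexamethasone-treated cells it was 6.15%, where counting alone gives 3.51%.

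The antisense gene Gm15441 shares 606 exon bases with Txnip on the opposite strand. Counting was strand-specific per the file headers, and Gm15441 had 4, 4 and 3 reads in the dexamethasone libraries and 0 in each undifferentiated library. Reads of the opposite strand were thus few in both groups.

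**Figure D1:**
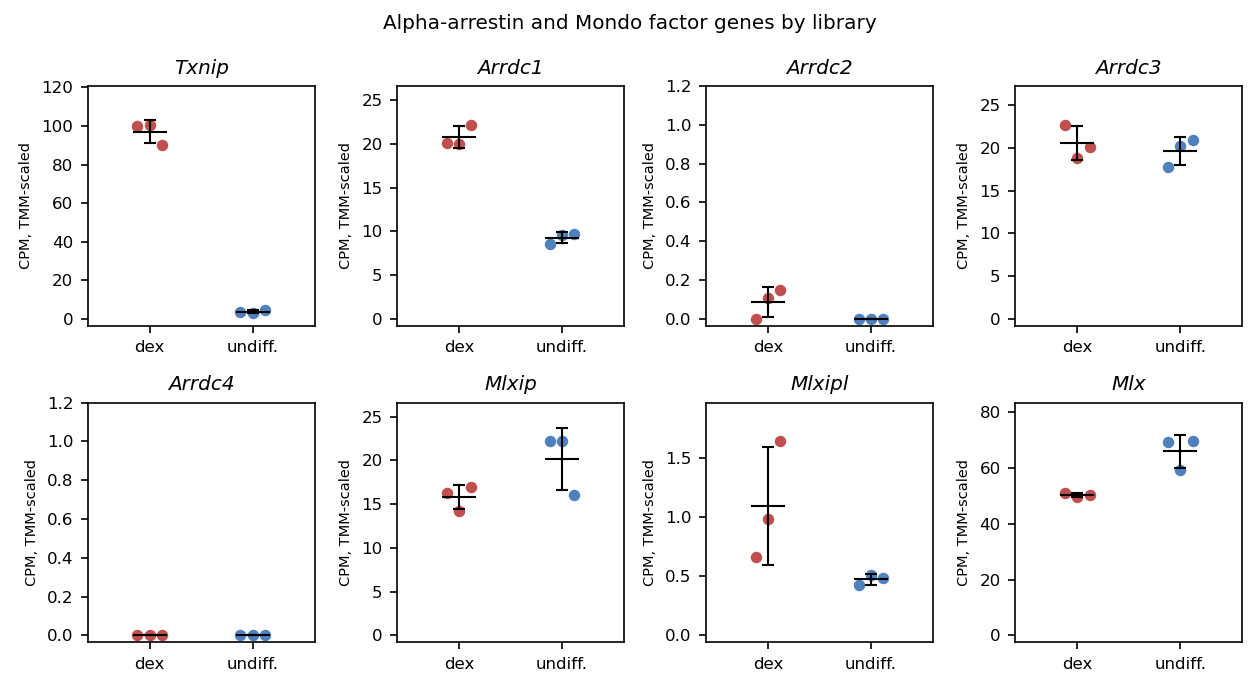
Level of the 8 genes in each library, in TMM-scaled CPM on linear axes, dexamethasone left of undifferentiated. Points are libraries, and bars are the mean and SD of 3; Txnip lies at 90.1 to 100.6 CPM with dexamethasone and at 3.19 to 4.55 CPM without, while Arrdc4 is at 0 in all 6 libraries.

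Of the 5 genes of the 8 that had enough reads to be tested, 2 were higher and 2 lower in dexamethasone-treated cells at an edgeR adjusted p under 0.05, where 78.9% of all 12664 tested genes were called. The higher genes were Txnip and Arrdc1, the lower ones Mlxip and Mlx, and Arrdc3 was not called. The groups did not overlap for 3 of the 5 (Txnip, Arrdc1 and Mlx), as for 79.9% of all tested genes. These calls only describe genes chosen with the comparison in view. Arrdc2, Arrdc4 and Mlxipl did not pass the filter on low counts.

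Arrdc1 encodes an alpha-arrestin known in human cells for budding of small vesicles from the plasma membrane with the ESCRT protein TSG101. Its gene (ENSMUSG00000026972; chromosome 2, 24925352 to 24935252, minus strand) had 20.2, 19.9 and 22.2 CPM in dexamethasone replicates 1, 2 and 3, against 8.62, 9.56 and 9.74 CPM in undifferentiated replicates 1, 2 and 3. The groups did not overlap, and the libraries within each lay close together. The log2 fold change was 1.15 ± 0.125 (SE), or 2.22-fold. Its coefficient of variation was 5.96% in dexamethasone libraries and 6.46% in undifferentiated ones, under the 7.64% and 12.4% that counting alone gives.

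Arrdc3, which encodes an adaptor linked in human cells to the turnover of integrin β4, was not called in either direction. The gene (ENSMUSG00000074794; chromosome 13, 80883384 to 80896042, plus strand) had 22.7, 18.9 and 20.1 CPM in dexamethasone-treated cells and 17.8, 20.3 and 20.9 CPM in undifferentiated cells. The groups overlapped. The log2 fold change was 0.07 ± 0.11 (SE), less than its error, and it was -0.015 without dexamethasone replicate 1.

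Arrdc2 and Arrdc4 were at or near 0. Arrdc2 (ENSMUSG00000002910; chromosome 8, 70835129 to 70839720, minus strand), whose product is a little-studied alpha-arrestin, had 0, 1 and 1 reads in the dexamethasone libraries and 0 in each undifferentiated library. Arrdc4 (ENSMUSG00000042659; chromosome 7, 68736995 to 68749241, minus strand), which encodes an alpha-arrestin known to be induced by glucose, had 0 reads in each of the 6 libraries. A count of 0 allows up to 3 reads, between 0.327 and 0.447 CPM in a dexamethasone library and between 0.382 and 0.487 CPM in an undifferentiated one, for counting error only. The nearest protein-coding genes with at least 100 reads over all libraries were Igf1r, 503 kb before Arrdc4, and Nr2f2, 1603 kb after it. Igf1r, the receptor of insulin-like growth factor 1, had 593 to 805 reads in dexamethasone libraries and 254 to 354 in undifferentiated ones. Nr2f2, a nuclear receptor, had 178 to 279 reads in dexamethasone libraries and 234 to 332 in undifferentiated ones. These neighbours were looked up after the count of Arrdc4 was seen. No annotated gene overlaps Arrdc4. Whether the locus is present in this line and whether its reads could be mapped uniquely was not tested.

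Compared per length, in TPM (reads per exon length, scaled to the same sum in every library), the makeup of the family differed between the groups. Txnip stood at 108, 111 and 99.3 TPM in dexamethasone replicates 1, 2 and 3, against 3.27, 3.13 and 4.40 TPM in undifferentiated replicates 1, 2 and 3. Arrdc1 had 27.1 to 30.4 TPM with dexamethasone and 10.3 to 11.7 TPM without. Arrdc3 had 10.4 to 12.2 TPM with dexamethasone and 8.55 to 10.1 TPM without. The order of levels was thus Txnip, Arrdc1, Arrdc3 in every dexamethasone library, with no overlap between neighbours over libraries. In undifferentiated libraries Arrdc1 came first, then Arrdc3, then Txnip; the first pair was separated narrowly, 10.3 TPM in the lowest Arrdc1 library against 10.1 TPM in the highest Arrdc3 library. Arrdc1 was above Arrdc3 in each of the 3 libraries, and Arrdc2 and Arrdc4 came last in both groups. Txnip made up 72.8% ± 2.11 of the summed TPM of the 5 alpha-arrestins in dexamethasone-treated cells and 14.7% ± 2.06 in undifferentiated cells (SD, n = 3 each). The sum itself was 146 ± 4.21 TPM in dexamethasone-treated cells and 24.4 ± 2.06 TPM in undifferentiated cells (SD, n = 3 each).

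**Figure D2:**
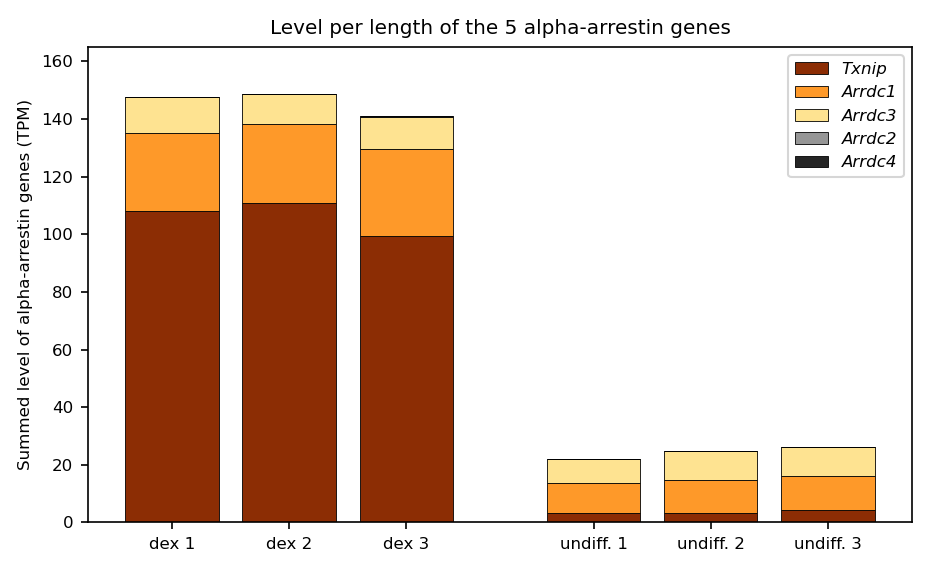
Level per length (TPM) of the 5 alpha-arrestin genes stacked for each library, dexamethasone left of undifferentiated. Txnip fills 70.5% to 74.6% of the bar in dexamethasone libraries and 12.7% to 16.8% in undifferentiated libraries; Arrdc2 and Arrdc4 are too low to see.

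Mlx and Mlxip were called lower in dexamethasone-treated cells, and Mlxipl had too few reads for the test. Mlx, which encodes the partner that both Mondo factors need to bind DNA (ENSMUSG00000017801; chromosome 11, 101087277 to 101092207, plus strand), had 51.0, 49.5 and 50.2 CPM in dexamethasone-treated cells and 69.1, 59.1 and 69.5 CPM in undifferentiated cells. Every dexamethasone library lay below every undifferentiated library, as for 38.9% of all tested genes. The log2 fold change was -0.39 ± 0.073 (SE), 1.31-fold lower. Mlx shares 385 exon bases with Psmc3ip, a recombination gene on the opposite strand that had 30 to 41 reads in dexamethasone libraries and 232 to 278 in undifferentiated ones. Counting was strand-specific, and the part of Psmc3ip reads in the Mlx value was not tested.

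Mlxip, the gene of MondoA (ENSMUSG00000038342; chromosome 5, 123394798 to 123457932, plus strand), had 16.3, 14.3 and 17.0 CPM in dexamethasone-treated cells and 22.2, 22.2 and 16.1 CPM in undifferentiated cells. Undifferentiated replicate 3 lay within the range of the dexamethasone libraries, so the groups overlapped. The log2 fold change was -0.37 ± 0.125 (SE). The call was lost without dexamethasone replicate 2 (log2 fold change -0.29), without undifferentiated replicate 1 (-0.30), without undifferentiated replicate 2 (-0.29), with upper quartile factors (-0.26) and with library totals alone (-0.24). Without undifferentiated replicate 3 the log2 fold change was -0.50.

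Mlxipl, the gene of ChREBP, best known from liver and fat (ENSMUSG00000005373; chromosome 5, 135089890 to 135138382, plus strand), had 6, 9 and 11 reads in dexamethasone replicates 1, 2 and 3, against 3, 4 and 3 reads in undifferentiated replicates 1, 2 and 3. All 3 dexamethasone libraries were higher, at 0.664 to 1.64 CPM against 0.424 to 0.510 CPM in undifferentiated cells. Of all tested genes, 41.0% had every dexamethasone library above every undifferentiated one. The coefficient of variation of Mlxipl in dexamethasone libraries was 45.4%, where counting alone gives 34.0%. The ratio of scaled reads, dexamethasone over undifferentiated, was 2.2 with a 95% exact binomial interval of 1.03 to 5.11, which covers counting error only. Mlxip made up 90.7% ± 3.44 of the summed TPM of the Mondo pair in dexamethasone-treated cells and 96.5% ± 0.794 in undifferentiated cells (SD, n = 3 each). MondoA's transcript was thus the main one in both groups. Mlx stood at 85.9 ± 0.603 TPM in dexamethasone-treated cells and 99.9 ± 7.92 TPM in undifferentiated cells (SD, n = 3 each), above Mlxip and Mlxipl in every library.

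**Figure D3:**
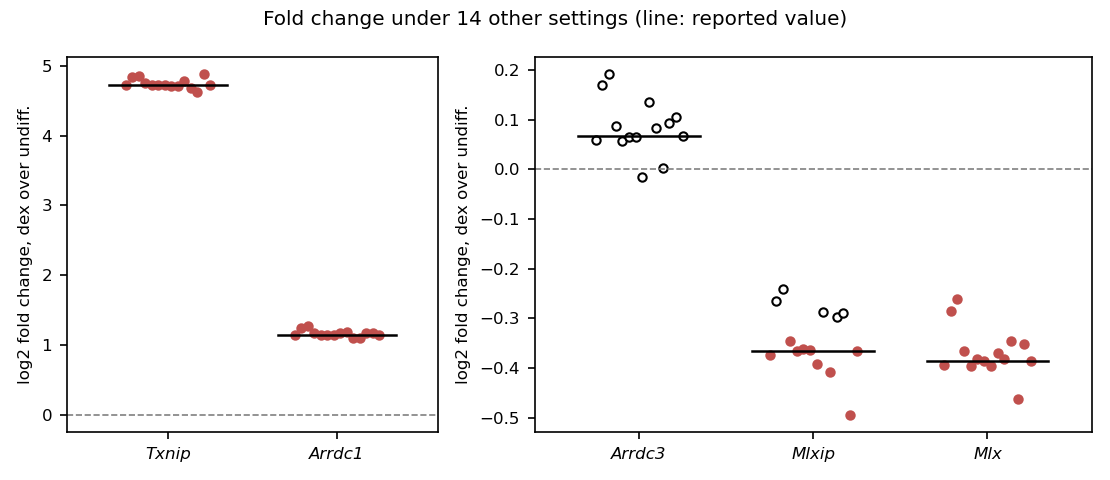
Fitted log2 fold change (dexamethasone over undifferentiated) of the 5 tested genes under 14 other settings, with the reported value as a line. Filled points passed the threshold of their setting: all for Txnip (4.62 to 4.88), Arrdc1 (1.10 to 1.28) and Mlx (-0.46 to -0.26), 9 for Mlxip and none for Arrdc3.

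Genes known as targets of ChREBP or MondoA, other than Txnip and Arrdc4, were more often higher than lower in dexamethasone-treated cells. Of 26 listed genes 20 were tested, 14 rose and 1 fell, with a median log2 fold change of 0.54 against 0.02 over all tested genes. Among all tested genes 40.3% rose and 38.6% fell. This list and those below were chosen with earlier results of these data known, so their shares are a description only. The desaturase gene Scd1 had 680 ± 63.1 CPM in dexamethasone-treated cells and 138 ± 4.58 CPM in undifferentiated cells (SD, n = 3 each; log2 fold change 2.30 ± 0.061 SE, edgeR adjusted p = 1.76e-22). Scd2, another desaturase gene, rose 2.96-fold. Me1, malic enzyme, fell by 0.23 on the log2 scale (edgeR adjusted p = 0.000179). With library totals alone no gene of this list fell, and without dexamethasone replicate 3 the count of lower genes was 2. Hk2 is also in the list of glucose genes below. Other factors, above all SREBP1, are known to control the lipid genes of this list.

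**Figure D4:**
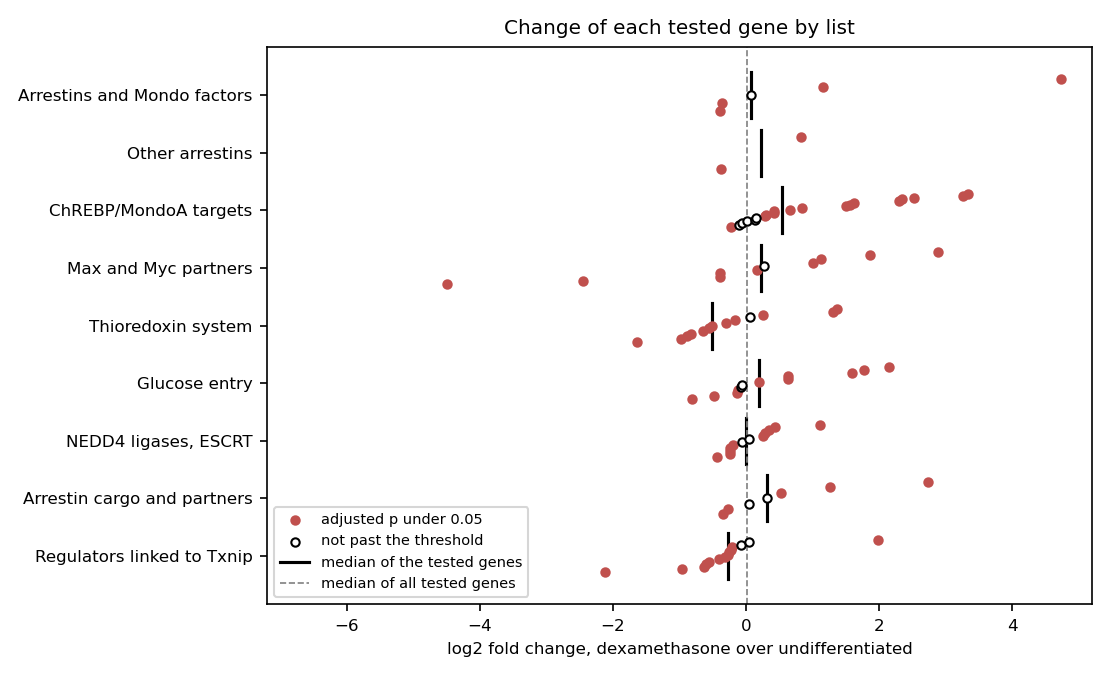
Fitted log2 fold change (dexamethasone over undifferentiated) of each tested gene with reads in both groups, by list, with the list's median as a bar and the median of all tested genes, 0.02, as a dashed line. Txnip is the point at 4.73; the thioredoxin list has its median at -0.51 and the list of ChREBP and MondoA targets at 0.54.

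Genes of the thioredoxin system, whose central protein TXNIP binds, fell more often than they rose. Of 14 genes of the thioredoxin and peroxiredoxin system 13 were tested, 9 fell and 3 rose, with a median log2 fold change of -0.51. Over all tested genes 38.6% fell and 40.3% rose, with a median of 0.02. Txn1, cytosolic thioredoxin, had 142 ± 8.56 CPM in dexamethasone-treated cells and 442 ± 8.17 CPM in undifferentiated cells (SD, n = 3 each; log2 fold change -1.64 ± 0.053 SE, edgeR adjusted p = 1.4e-20). Txnrd1, the reductase that recycles it, fell by 0.89 on the log2 scale. Map3k5, the stress kinase ASK1 that thioredoxin holds inactive, rose 2.58-fold, and Srxn1, sulfiredoxin, 2.47-fold. Per length, the Txnip to Txn1 ratio of TPM was 0.239, 0.225 and 0.227 in dexamethasone replicates 1, 2 and 3, against 0.00261, 0.00237 and 0.00350 in undifferentiated replicates 1, 2 and 3. Txn1 transcripts outnumbered Txnip transcripts in all 6 libraries.

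Of 22 genes of glucose transport and the first steps of glucose use 13 were tested, 7 rose and 4 fell, with a median log2 fold change of 0.19. Over all tested genes 40.3% rose and 38.6% fell. Slc2a1, the transporter GLUT1 that TXNIP is known to bind, had 24.8 ± 2.22 CPM in dexamethasone-treated cells and 43.5 ± 1.88 CPM in undifferentiated cells (SD, n = 3 each; log2 fold change -0.81 ± 0.088 SE, edgeR adjusted p = 3.39e-09). The Txnip to Slc2a1 ratio of TPM was 4.14 to 4.91 in dexamethasone libraries and 0.0793 to 0.116 in undifferentiated ones, so the order of both genes turned over. Slc2a6, a transporter of lysosomes, rose 3.40-fold, and Hk1, hexokinase 1, 1.55-fold. Pfkl, a phosphofructokinase subunit, fell by 0.48 on the log2 scale. Under 5 of the alternatives that kept all libraries 2 of these genes fell, and likewise without dexamethasone replicate 2, without dexamethasone replicate 3 or without undifferentiated replicate 1.

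Alpha-arrestins recruit NEDD4-family ligases, and ARRDC1 has ESCRT partners. Of 15 such genes 12 were tested, 5 rose and 5 fell, with a median log2 fold change of -0.003; both shares are near those over all tested genes (40.3% and 38.6%). Ndfip1, a membrane adaptor that activates these ligases, rose 2.17-fold (331 ± 12.4 CPM in dexamethasone-treated cells and 153 ± 6.69 CPM in undifferentiated cells, SD, n = 3 each; edgeR adjusted p = 7.34e-17), and the ligase gene Smurf1 1.35-fold. The ligase gene Wwp2 fell by 0.44 and Tsg101 fell by 0.24 on the log2 scale. With upper quartile factors 6 genes of this list rose and 2 fell. With library totals alone 6 rose and 1 fell, and Tsg101 was not called (log2 fold change -0.12). Among 13 genes of alpha-arrestin cargo and partners 7 were tested, 3 rose and 2 fell, with a median log2 fold change of 0.31. Itgb4, integrin β4, rose 6.64-fold and Insr, the insulin receptor, 2.39-fold. F2r, a thrombin receptor, fell by 0.34 and Slc11a2, an iron transporter, fell by 0.27 on the log2 scale. Without undifferentiated replicate 1, with upper quartile factors or with library totals alone Slc11a2 was not called, leaving 1 lower gene. The vasopressin receptor gene Avpr2 and the kinase gene Lats1 had 0 reads in every library.

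Of 20 genes of kinases and factors that act on Txnip, with the inflammasome genes it is linked to, 15 were tested. Of these 2 rose and 11 fell, with a median log2 fold change of -0.28, where 40.3% of all tested genes rose and 38.6% fell. Foxo3, a FOXO transcription factor, had 124 ± 2.18 CPM in dexamethasone-treated cells and 31.3 ± 1.48 CPM in undifferentiated cells (SD, n = 3 each; log2 fold change 1.99 ± 0.068 SE, edgeR adjusted p = 4.55e-20). Casp1, the inflammasome protease, had 22, 17 and 10 reads in dexamethasone replicates 1, 2 and 3 and 0 in each undifferentiated library. Taking 3 reads for the whole undifferentiated group as the limit, it was at least 13.8-fold higher. Nfyc, a subunit of the factor that binds CCAAT boxes, fell by 2.12 on the log2 scale, and Nfyb, another subunit, fell by 0.97. Of 10 Max and Myc partners, which form the wider network around MLX, 5 rose and 4 fell, with a median of 0.22. These counts are not far from the shares over all tested genes. Mxd4 and Mnt, repressors that can pair with MLX, rose 3.63-fold and 2.19-fold. Mycn fell by 2.46 and Mxd3 fell by 4.49 on the log2 scale. Of the 5 other arrestin genes 2 were tested, with a median of 0.23: Arrb1, β-arrestin 1, rose 1.78-fold and Arrb2, β-arrestin 2, fell by 0.38 on the log2 scale.

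The genes whose profile over the 6 libraries was most like that of Txnip were taken from 10357 genes by the root mean square distance between centred log2 CPM values, in which a small prior count draws low counts together. They were Cntnap3 (distance 0.10), Slamf9 (0.12), Gpat3 (0.14), Slc17a7 (0.16) and G0s2 (0.17). Gpat3, an acyltransferase of triglyceride synthesis, had 32 reads over the undifferentiated libraries, with 36.6 ± 0.575 CPM in dexamethasone-treated cells and 1.55 ± 0.356 CPM in undifferentiated cells (SD, n = 3 each). Cntnap3 and Slamf9 each had 1 read over the undifferentiated libraries and G0s2, an inhibitor of fat breakdown, had 0. The size of change of Cntnap3, Slamf9 and G0s2 could thus not be told, and their closeness to Txnip rests in part on the prior count. Gpat3 rose 23.9-fold and Slc17a7 43.9-fold, against 26.5-fold for Txnip. Slc17a7, a vesicular glutamate transporter, had 17.4 ± 0.874 CPM in dexamethasone-treated cells and 0.384 ± 0.102 CPM in undifferentiated cells (SD, n = 3 each), with 8 reads over the undifferentiated libraries.

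The labelled cell type was checked against markers. All 10 neuronal and neuroendocrine markers were tested, and of 11 catecholaminergic markers 9 were tested, while the noradrenaline transporter gene Slc6a2 had 0 reads. Of the neuronal markers 8 rose and 2 fell, and of the catecholaminergic ones 3 rose and 5 fell. Shares over all tested genes were 40.3% higher and 38.6% lower. The neuronal markers summed to between 10999 and 13132 CPM in dexamethasone libraries and between 2350 and 2413 CPM in undifferentiated ones. Chgb, a granin of secretory granules, made up most of that gap, with 9181 to 11283 CPM in dexamethasone libraries and 977 to 1069 CPM in undifferentiated ones. The other 9 markers summed to 1818 to 1886 CPM in dexamethasone libraries and 1338 to 1375 CPM in undifferentiated ones, and Tubb3 and Elavl4 among them fell. Astrocyte markers summed to at most 4.21 CPM in dexamethasone libraries and 5.52 CPM in undifferentiated ones. Oligodendrocyte and Schwann cell markers summed to at most 4.36 CPM in dexamethasone libraries and 4.22 CPM in undifferentiated ones. Microglial and blood markers summed to at most 0.149 CPM in dexamethasone libraries and 0.565 CPM in undifferentiated ones. The defining markers Mog, Sox10, Olig2, Ptprc, Cx3cr1 and Col3a1 were at 0. Endothelial markers summed to 39.4 to 43.1 CPM in dexamethasone libraries and 20.8 to 24.5 CPM in undifferentiated ones, with 2 of 5 tested, both higher. Fibroblast markers summed to 18.3 to 20.3 CPM in dexamethasone libraries and 10.1 to 13.7 CPM in undifferentiated ones, with 2 of 6 tested and 1 higher. The part of these lists in the values above was not tested. In bulk libraries fewer cells of a type and less RNA per cell cannot be told apart. With 78.9% of genes called, all directions here are shares of a library's mRNA, and amounts per cell were not measured.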

How the data were processed

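Raw counts of reads per gene were deposited, in 1 file per library. The file headers name featureCounts 1.6.4 as the authors' counting tool, run on exons of Ensembl release 96 with strand setting 1. Options for reads aligned to several places or genes were off, so reads shared by near-identical genes were not counted. The submitters' processing notes list GRCm38.p6 as the build and, with roles not given in the sources used here, DESeq2, Subread 1.6.4, HISAT2 2.2.0, Trim Galore 0.6.4 and FastQC 0.11.9. Per the labels' protocols, 500 ng of RNA went into each mRNA library, amplification took 12 cycles and reads had 75 bases. The labels call the samples independent without naming separate cultures, so the p-values rest on a spread among samples that could be technical only.

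All 55536 identifiers matched GENCODE M21 by start and end. The filter was filterByExpr (minimum count 10, minimum total 15), which left 12664 genes with 99.8% of reads. TMM factors and edgeR 4.0.16 in R 4.3.3 (quasi-likelihood test on the group) gave log2 fold changes; a gene was called where its p, adjusted by Benjamini-Hochberg over all tested genes, was under 0.05. An SE is the absolute log2 fold change over the square root of F. TPM came from the counts and the exon lengths in the files. Intervals and the limit of 3 reads for a count of 0 cover counting error only. The test was run on simulated data where 67, 67 and 66 of 12664 genes changed 1.5-fold, 2-fold and 4-fold. It recovered 82.1%, 92.5% and 98.5% of them, and 5.70% of calls were false. Far fewer genes changed there than were called in the data, so errors at that share were not checked.

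The 8 genes and all lists were chosen with earlier results of these data known. From each list at most 2 called genes per direction, with the smallest adjusted p and at least 1 CPM in a group, are named. The 5 genes most like Txnip had an official symbol and at least 5 CPM in a group. Other genes were named after their values were seen. Some genes of the lists are not reported here by name. Protein sequences, planned for comparison, were not used here. Alternatives were library totals alone, upper quartile factors, RLE factors, DESeq2 1.42.0, no filter on low counts, limma voom (limma 3.58.1), a replicate block, an adjusted p under 0.01, and each library left out in turn.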

Additional observations from a re-analysis of the deposited data

How the results depend on the processing

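Txnip, Arrdc1 and Mlx kept their direction and stayed past the threshold under all 14 alternatives. Arrdc3 stayed short of the threshold under all of them (log2 fold change up to 0.19), and it reversed to -0.015 without dexamethasone replicate 1; with single libraries left out it ranged from -0.015 to 0.14. Mlxip lost its call under 5 of them. Upper quartile factors moved the median log2 fold change of all tested genes by 0.10 and library totals alone by 0.13; relative to that median, Mlxip was at -0.38 under both and in the reported fit. The count of lower genes among the 8 was 1 with upper quartile factors and 1 with library totals alone. With upper quartile factors 2 glucose genes, 2 genes of the NEDD4 and ESCRT list and 1 gene of the cargo list were lower. With library totals alone 0 ChREBP and MondoA targets, 2 glucose genes, 1 gene of the NEDD4 and ESCRT list and 1 gene of the cargo list were lower. No filter and an adjusted p under 0.01 each left 2 lower glucose genes. With single libraries left out, the lower counts ranged from 1 to 2 for the 8 genes, from 2 to 4 for glucose genes, from 1 to 2 for ChREBP and MondoA targets and from 1 to 2 for cargo. Of all called genes 51.1% were higher in dexamethasone-treated cells, and 58.0% with library totals alone.

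Libraries with the same replicate number did not deviate together (r = -0.095, 0.036 and -0.071 for numbers 1, 2 and 3), so the numbers are not taken to pair the samples. With the replicate block 5017 genes were higher and 4803 lower, against 5106 and 4891 without it, 2 glucose genes were lower, and Txnip stayed at 4.73. No call among the 8 genes changed with the block. Mlxipl, Arrdc2 and Arrdc4 had too few reads to pass the filter and were not tested in the reported fit. The causes of these changes were not tested.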

Other observations

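The kinase gene Lats1, looked at as a partner of alpha-arrestins, lies in a run of 10 consecutive protein-coding genes with at most 1 read over all 6 libraries, on chromosome 10 from 6740629 to 7763150 in GRCm38. The run also holds Pcmt1, which repairs aged proteins, Nup43, a subunit of the nuclear pore, and Katna1, the microtubule-severing subunit of katanin. Together its 10 genes had 1 read, in Katna1. The next gene, Ginm1, had 527 reads over the 6 libraries, and Ppil4 and Tab2 after it had 3264 and 9766. Rgs17, before the run, had 142. Lats2, the paralog of Lats1 on another chromosome, had 41, 41 and 32 reads in dexamethasone replicates 1, 2 and 3 and 26, 33 and 19 in undifferentiated replicates 1, 2 and 3. The run was noticed after the values were seen, it did not differ between the groups, and its cause was not tested.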
